A study of Mus musculus with 6 samples.

Results

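The genes described here are 10 that encode enzymes, a helper protein and a receptor of prostanoid, leukotriene and histamine signalling: Pla2g4a, Ptgs1, Ptgs2, Ptges, Tbxas1, Ptger4, Alox5, Alox5ap, Ltc4s and Hdc. They were chosen by symbol, and all 10 had a row among the 17217 rows of the deposited table, whose values are TPM, transcript levels corrected for gene length and library total. The list was drawn up with the difference between the groups in view, so that difference is given for the 10 genes as a description and not as a test. The labels describe mouse bone marrow-derived macrophages from 8-week-old mice, cultured in 30 ng/mL of the macrophage growth factor M-CSF and exposed for 24 h to 100 ng/mL lipopolysaccharide (LPS), a bacterial cell wall product. The 3 Control and 3 knockout libraries are told apart by their titles and genotype labels, Con and KO. The protocol, worded alike for all 6, names WT mice as the source of the marrow and also CD74+/+ and CD74-/- macrophages as the source of the RNA, so the origin of the knockout cells is not settled by the labels. Cd74 encodes a chaperone of MHC class II that is also a receptor for the cytokine MIF. LPS was given to every culture, so no unstimulated level is at hand.

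Prostanoids and leukotrienes are short-lived lipid signals made from arachidonic acid, which a cytosolic phospholipase frees from membranes. Cyclooxygenases turn it into an unstable intermediate that terminal synthases convert to prostaglandins or thromboxane, while 5-lipoxygenase, helped by a small membrane protein, starts the leukotriene branch. Histamine is made in a single step from the amino acid histidine. Macrophages exposed to LPS are a textbook source of prostaglandin E2, by way of the inducible cyclooxygenase.

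Of the 9 members with enough signal to test, Hdc and Ptgs2 were lower in the knockout, and the other 7 were not called. Hdc stood 3.57-fold lower and Ptgs2 1.95-fold lower in group means. The phospholipase, the constitutive cyclooxygenase, the prostaglandin E receptor and the leukotriene genes all had log2 fold changes between -0.11 and 0.13. Ptges, the prostaglandin E synthase, stood at 0.29 with an SE of 0.20. Called here means an adjusted p under 0.05 in a limma fit over the 13034 rows whose mean reached 1 TPM. In that fit 10.1% of rows were called lower and 18.5% higher, and the 2 of 9 members called lower are to be set beside that share without a reading of it. The median log2 fold change was -0.04 over the 9 members and 0.04 over all tested rows.

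Recovered depth ran from 36445462 to 59236599 reads per library. Cd74 ranged from 593 to 632 TPM over the Control libraries and from 63.1 to 65.3 TPM over the knockout libraries, lower there but not at 0. These knockout values were not whole reads at the annotated length, unlike the Control values, and Cd74 was 1 of 28 rows that were whole at no length searched. The log2 ratio of its group means, -3.24, departed by -1.98 from the median of the 25 rows on each side of it in the table, which was -1.26. At the places of Cd74 and the members this median rose down the table, from -1.89 at row 202 (Hdc) to 0.71 at row 15756 (Tbxas1). The table thus appears to be ordered by this ratio, with Cd74 at a place for about -1.26. The check of the labels rests on these values, and they do not settle the size of the fall of Cd74. Without the 28 rows, 1285 rows were called lower and 2405 higher, against 1313 and 2406 with them, so the loss was nearly all among lower calls. None of the 10 members was among the 28, and all their 6 values were whole reads at the annotated length. The log2 ratios of the members departed from the neighbouring rows by -0.00075 to 0.058. Batch 1 of the labels is the Control group and batch 2 the knockout group, and for every difference below the 2 cannot be told apart. The labels tie no replicate to an animal or culture of its own, and the spread between them may be technical. The share of higher rows among those called was 64.7% as deposited, 51.5% after median-of-ratios scaling and 48.2% after upper-quartile scaling. Of 12 macrophage markers the 8 with a row summed to 10597 to 11142 TPM in Control and 13941 to 15190 TPM in the knockout. Most of that rise lay in Lyz2 alone, at 4966 to 5622 TPM in Control and 8102 to 9547 TPM in the knockout. Of the 7 tested, Lyz2 (log2 fold change 0.69), Csf1r (0.76) and Itgam (0.30) were called higher and Adgre1 (-0.56) lower, and of these calls that of Itgam was lost without Control replicate 3 or knockout replicate 1 or 2. The part of these shifts in the results below was not tested. The tested markers Cd68, Cd14 and Fcgr1 were not called. Mertk, C1qa, C1qb and C1qc had no row and Mrc1 stayed below 1 TPM.

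**Figure D1:**
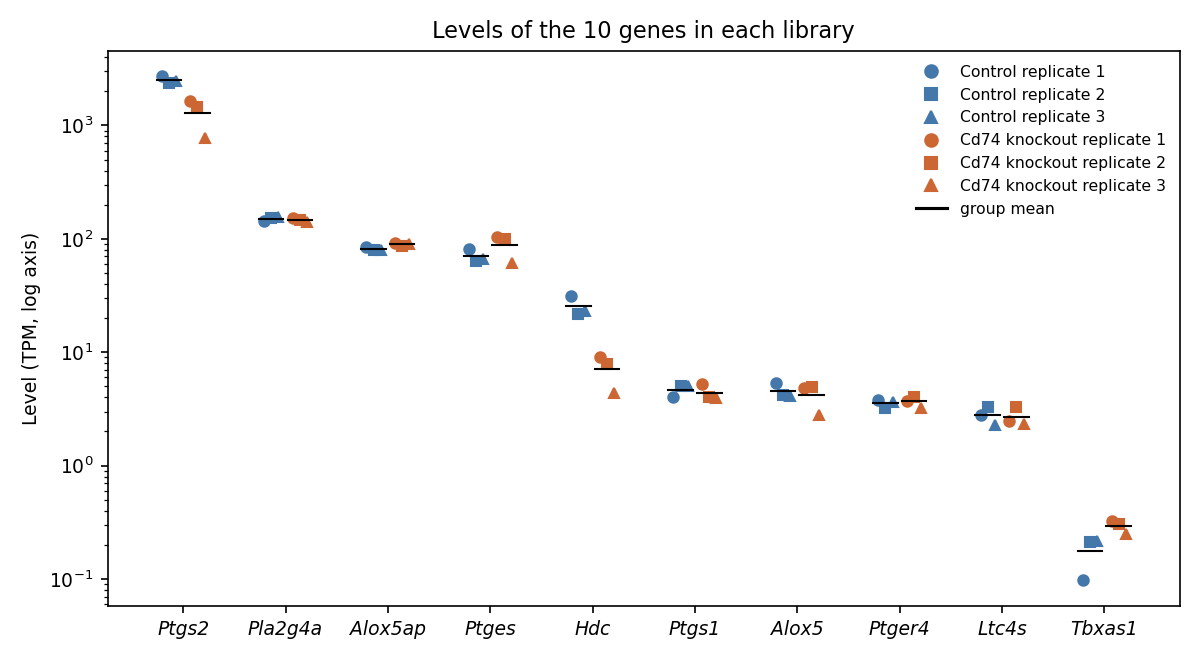
Level of each of the 10 genes in TPM (log axis) in the 3 Control and 3 Cd74 knockout libraries, with a bar at each group mean, ordered by the mean over all libraries. Ptgs2 lies at 773 TPM or more throughout and Tbxas1 below 0.33 TPM, and the groups separate downward in Ptgs2 and Hdc.

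Levels of the 10 genes spanned a wide range within each library, and since TPM is per length they can be set side by side. Ptgs2 was first in every library, at 773 to 2733 TPM, and ranked 53 among the 13034 tested rows by mean level. Pla2g4a was second in all 6, at 141 to 157 TPM. Alox5ap and Ptges followed and exchanged places, with Ptges above Alox5ap in knockout replicates 1 and 2 alone, so their order is within the spread. Hdc ranked 5 in every library, also in those where it was lower. Ptgs1, Alox5, Ptger4 and Ltc4s lay between 2.27 and 5.33 TPM, and their order changed from library to library, except that Ltc4s was below Ptgs1 and Alox5 in all 6. The ranges of Ltc4s and Ptgs1 did not overlap. Tbxas1 was last throughout, at 0.10 to 0.33 TPM.

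The promoters of Ptgs2 and Hdc, the members that were lower, and of Ptgs1, the cyclooxygenase that was not called, are shown because these members differ in behaviour. Each runs from 250 bases before to 50 bases after the annotated start, 5′ to 3′ on the gene's strand, from RefSeq on GRCm38.p6. Ptgs2 lies at chr1:150099781-150100080 (plus strand), Ptgs1 at chr2:36230176-36230475 (plus strand) and Hdc at chr2:126618629-126618928 (minus strand). Capitals mark matches to 7 motifs searched on both strands.
Ptgs2: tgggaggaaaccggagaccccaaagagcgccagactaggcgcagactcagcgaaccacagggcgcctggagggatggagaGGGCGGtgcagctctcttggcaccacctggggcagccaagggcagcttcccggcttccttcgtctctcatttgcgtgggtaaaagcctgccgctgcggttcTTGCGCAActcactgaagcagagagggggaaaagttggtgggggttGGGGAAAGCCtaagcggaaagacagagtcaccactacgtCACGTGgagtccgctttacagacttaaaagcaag
Ptgs1: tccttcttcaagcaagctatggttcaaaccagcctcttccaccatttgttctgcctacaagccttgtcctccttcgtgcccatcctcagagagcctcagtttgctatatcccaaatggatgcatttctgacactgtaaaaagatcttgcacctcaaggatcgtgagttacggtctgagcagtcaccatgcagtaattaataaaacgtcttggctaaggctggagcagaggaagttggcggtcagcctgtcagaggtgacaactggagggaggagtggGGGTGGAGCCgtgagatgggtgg
Hdc: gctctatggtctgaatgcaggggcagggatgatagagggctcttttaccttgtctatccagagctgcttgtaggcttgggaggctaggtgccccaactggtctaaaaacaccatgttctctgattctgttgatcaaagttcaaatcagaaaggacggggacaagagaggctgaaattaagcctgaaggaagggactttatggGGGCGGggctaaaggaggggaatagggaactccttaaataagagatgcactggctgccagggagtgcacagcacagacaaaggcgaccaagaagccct

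The share of 32851 promoter windows of the same length that hold a motif is given with its letters, followed by the share among the 11598 windows of tested rows. The kappaB form begins with GGG and, after any 5 bases, ends with CC, and 50.8% of windows held it (66.0% among tested rows). The C/EBP form TTGCNNAA was in 10.8% (8.73%) and the CRE form TGACGTNA in 2.93% (5.10%). AP-1 was searched as TGANTCA, which 7.81% of windows held (5.26%). The E-box searched for was CACGTG, with a share of 7.15% (10.2%). Of all windows 13.6% (7.23%) held TATAAA, the core of the TATA box. The GC box was searched as GGGCGG and was the next most frequent after kappaB, at 35.7% (61.4%). Ptgs2 held 1 match each to the GC box, C/EBP, kappaB and E-box, whose first bases lay at -170, -69, -23 and 17 from the start, and none of them overlapped. Its C/EBP match, TTGCGCAA, reads the same on both strands, and Ptgs2 was the 1 member with a C/EBP match among the 9 with a window. Ptgs1 held a single kappaB match, GGGTGGAGCC, at 28. Hdc held a GC box at -48 and no match to the other motifs. For every member, Ptgs2 and the CRE form included, a missing match says only that those exact letters are not in this window. Ltc4s and the first start of Pla2g4a held no match to any of the 7. In Ptges, Alox5 and Ptger4 a GC box overlapped a kappaB match, and in Tbxas1 the TATA box was read on both strands.

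**Figure D2:**
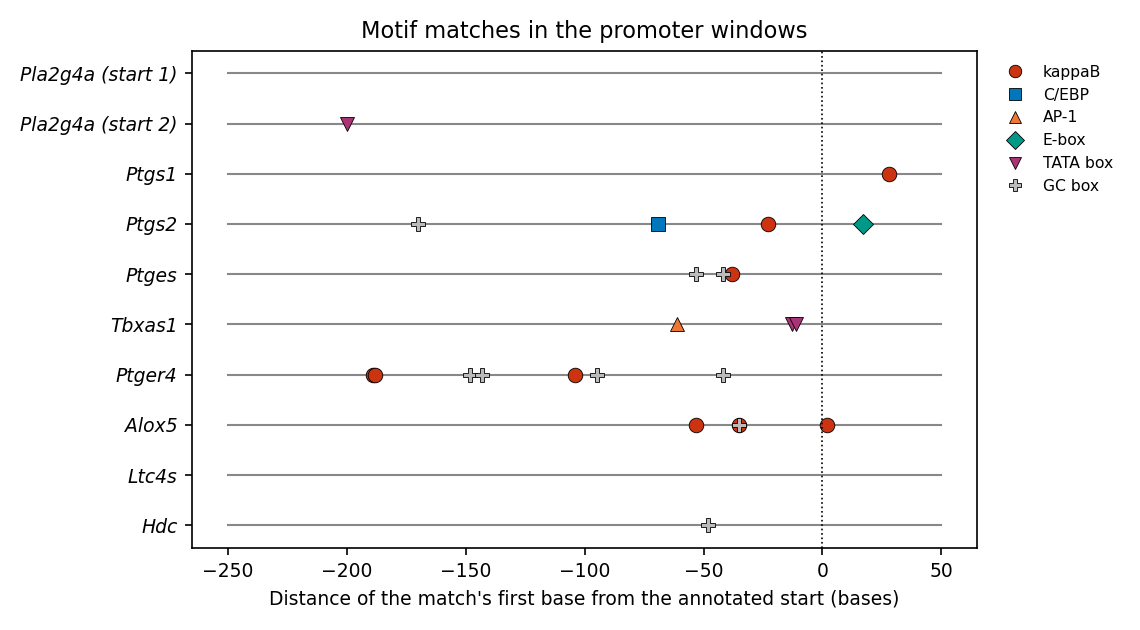
Matches to the motifs in the 10 promoter windows of 9 members, by distance of the first base of the match from the annotated start in bases, with 1 row per window and Pla2g4a shown at both of its starts. Ptgs2 has 4 matches of 4 kinds, while Hdc has the GC box alone.

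Pla2g4a encodes cytosolic phospholipase A2, which supplies the arachidonic acid for both lipid branches. Its level was 144, 152 and 157 TPM in Control and 153, 147 and 141 TPM in the knockout, here and below in the order of replicates 1 to 3. The groups overlapped, and the coefficient of variation within a group, 4.58% in Control and 4.18% in the knockout, was smaller in no other member but Alox5ap. Group means were 151 ± 6.92 and 147 ± 6.14 TPM (SD, n = 3 each), and the log2 fold change was -0.04 (SE 0.05). Pla2g4a lies close to Ptgs2 on chromosome 1, separated in RefSeq's GRCm38.p6 annotation by the pseudogene Gm19136 and the long noncoding RNA gene Ptgs2os. The phospholipase gene was thus level and the cyclooxygenase gene lower. Ptgs2os stood at means of 0.79 TPM in Control and 0.39 TPM in the knockout, lower without overlap but too low to test. Ptgs2os2, which starts after Ptgs2, had means of 36.8 and 39.6 TPM and was not called.

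Ptgs1 and Ptgs2 encode the constitutive and the inducible cyclooxygenase. Ptgs1 was low, at 4.05, 5.02 and 5.00 TPM in the Control libraries and 5.20, 4.05 and 3.98 TPM in the knockout libraries, from 178 to 362 reads. Both groups held high and low values, and its log2 fold change was -0.07 (SE 0.13). Ptgs2 was far more abundant, at 2733, 2359 and 2455 TPM in Control against 1652, 1452 and 773 TPM in the knockout. Every knockout library was below every Control library, and knockout replicate 3 was far below the other two. Such separation downward was seen in 19.8% of all tested rows.

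In means, Ptgs2 fell from 2515 ± 194 to 1292 ± 461 TPM (SD, n = 3 each), with a log2 fold change of -1.03 (SE 0.26). A fall of that size or more was called for 87 of the 13034 tested rows (0.667%), with Ptgs2 itself, Hdc and Cd74 among them. The coefficient of variation of Ptgs2 was 7.72% in Control and 35.7% in the knockout. Without knockout replicate 3 the log2 fold change was -0.70 and still called, and without that library and Control replicate 1 together it was -0.64. It was no longer called without Control replicate 1 (-0.97), 2 (-1.08) or 3 (-1.05), while its size hardly moved. Ptgs2 made up 99.8% to 99.9% of the summed cyclooxygenase TPM in the Control libraries and 99.5% to 99.7% in the knockout libraries. The inducible form therefore held nearly all cyclooxygenase transcripts in both groups. Per library the ratio of Ptgs2 to Ptgs1 was 675, 470 and 491 in Control and 318, 358 and 194 in the knockout.

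The 3′ untranslated region of Ptgs2 is shown in part because it holds many copies of ATTTA, the core of AU-rich elements known for governing mRNA decay. That motif was added after the members' values were seen. In the longest annotated form (GENCODE M21, 2448 bases) it occurred 14 times, against a median of 2 in 10538 tested genes, of which 2.69% held 14 or more. The region is also long, beside a median of 1144 bases, and it held 5.72 copies per kilobase against a median of 1.31. The 30 bases with the most copies, bases 15 to 44 of the region, held 4, in capitals.
Ptgs2: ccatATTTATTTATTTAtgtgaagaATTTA

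Among the other members Pla2g4a held 4 copies in 446 bases, a higher density than Ptgs2 at 8.97 per kilobase. Ptger4 held 5 copies in 1236 bases, and Tbxas1, Alox5 and Alox5ap 2 each. Ptgs1, Ptges, Ltc4s and Hdc held 0, the region of Hdc being 297 bases long. These counts are a description, and no relation between them and the differences was tested.

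**Figure D3:**
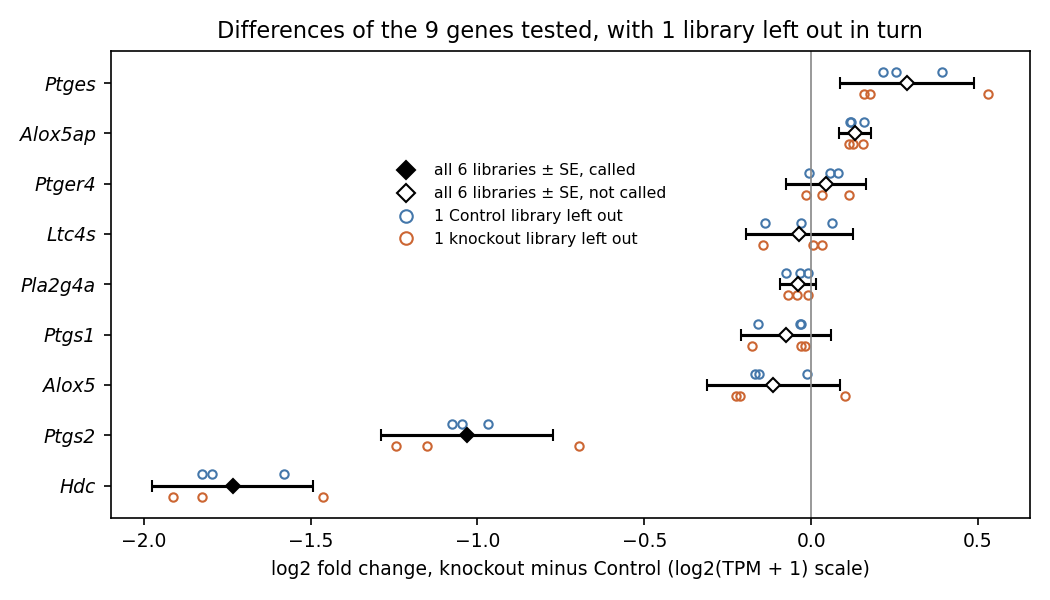
Log2 fold change (knockout minus Control, on log2(TPM + 1)) of the 9 tested genes with all 6 libraries (diamonds, bars give the SE) and with 1 library left out in turn (circles). Hdc stays between -1.91 and -1.46, Ptgs2 moves to -0.70 and Ptges to 0.53 when knockout replicate 3 is left out, and the other genes stay near 0.

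Among the terminal synthases, Ptges encodes the inducible microsomal prostaglandin E synthase, which works downstream of the inducible cyclooxygenase. Control libraries held 81.2, 63.2 and 66.7 TPM of it and knockout libraries 102.8, 100.2 and 60.9 TPM. Knockout replicates 1 and 2 were above every Control library, whereas replicate 3 was below all of them. Group means were 70.4 ± 9.55 and 88.0 ± 23.5 TPM (SD, n = 3 each), and the log2 fold change was 0.29 (SE 0.20), not called. Without knockout replicate 3 it was 0.53 and called, so that library decides the call. Leaving out Control replicate 1 as well gave 0.64. Ptges overlaps the pseudogene Gm13400, a row at 1.85 to 8.36 TPM that was not called.

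Ptges was the lesser part of the prostaglandin E synthase transcripts. It made up 13.4% to 18.9% of the summed TPM of Ptges, Ptges2 and Ptges3 in Control and 10.3% to 18.1% in the knockout, and the groups overlapped. Ptges3, the cytosolic synthase that is also the HSP90 cochaperone p23, held 77.4% to 87.3%.

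Tbxas1 encodes thromboxane A synthase and was close to the limit of detection. It stood at 0.097, 0.212 and 0.218 TPM in Control and at 0.325, 0.308 and 0.249 TPM in the knockout, from 10, 31 and 31 against 53, 44 and 38 reads. The groups did not overlap, with the knockout higher, but the gene was too low to test. Its 3 Control values differed by more than the gap between the groups. In RefSeq's annotation Tbxas1 overlaps Hipk2, a kinase gene at 27.6 ± 0.61 TPM in Control and 35.2 ± 1.36 TPM in the knockout (SD, n = 3 each), which was called higher (log2 fold change 0.34, limma adjusted p = 0.00566). That overlap is one of gene spans, and whether exons are shared was not checked. Whether reads were counted by strand is not given in the sources used here. A part of Hipk2 reads in the few Tbxas1 reads was not tested. Platelets are a known source of thromboxane, and the 3 of 7 platelet markers with a row summed to 1.42 to 1.69 TPM in Control and 1.90 to 2.98 TPM in the knockout. They did not move as 1, with Pf4 at means of 0.71 and 1.32 TPM, Treml1 at 0.42 and 0.81 and Itga2b at 0.47 and 0.29. Pf4 was not called, the other two were too low to test, and the part of any of them in the Tbxas1 values was not tested.

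Ptger4 encodes EP4, a prostaglandin E2 receptor that raises cyclic AMP. It stood at 3.77, 3.22 and 3.61 TPM in Control and 3.74, 4.06 and 3.25 TPM in the knockout. The ranges overlapped, with knockout replicate 2 above every Control library, and the log2 fold change was 0.04 (SE 0.12). The sister receptors Ptger1 and Ptger2 were below 1 TPM in every library, so Ptger4 was the highest of the prostaglandin E receptors that had a row.

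Turning to leukotrienes, Alox5 encodes 5-lipoxygenase, which makes the first leukotriene intermediate. Its values were 5.33, 4.19 and 4.09 TPM in Control and 4.87, 4.97 and 2.78 TPM in the knockout. Knockout replicate 3 was the lowest of the 6 and the other knockout libraries lay within the Control range. The log2 fold change of -0.11 (SE 0.20) became 0.10 without that library and 0.20 without Control replicate 1 as well, and it was called in neither case.

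Alox5ap encodes FLAP, the membrane protein that presents arachidonic acid to 5-lipoxygenase. It stood at 84.6, 79.9 and 79.8 TPM in Control and at 91.5, 86.4 and 90.1 TPM in the knockout. Each knockout library was above each Control library, as in 30.2% of tested rows, with means of 81.5 ± 2.74 and 89.3 ± 2.64 TPM (SD, n = 3 each). The log2 fold change of 0.13 (SE 0.05) was not called with all 6 libraries and was called, at 0.15, without Control replicate 1 and knockout replicate 3. After upper-quartile scaling it was 0.08. FLAP transcripts outnumbered those of 5-lipoxygenase 15.9 to 32.4 times per library, and the highest ratio belonged to knockout replicate 3, where Alox5 was lowest.

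Ltc4s encodes leukotriene C4 synthase, which joins glutathione to the leukotriene intermediate. Its values were 2.79, 3.32 and 2.27 TPM in Control and 2.48, 3.27 and 2.35 TPM in the knockout, from 32 to 54 reads per library. The groups overlapped, with a log2 fold change of -0.04 (SE 0.16).

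Hdc encodes histidine decarboxylase, the enzyme that makes histamine. Its values were 31.2, 21.9 and 22.9 TPM in Control against 9.03, 7.90 and 4.37 TPM in the knockout. The lowest Control library was above the highest knockout library by more than the whole range of the knockout, and knockout replicate 3 was again the lowest. Reads ranged from 2250 to 2288 in Control and from 470 to 1034 in the knockout. Hdc fell from 25.3 ± 5.07 to 7.10 ± 2.43 TPM (SD, n = 3 each), with a log2 fold change of -1.73 (SE 0.24). Called lower by that much or more were 12 of the 13034 tested rows (0.0921%), with Hdc itself and Cd74 among them. The size of the fall of Cd74 is not settled, as given above. The call of Hdc held in all 15 alternatives, at -1.91 to -1.31, the least when Control replicate 1 and knockout replicate 3 were left out together.

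Mast cells and basophils are the classical sources of histamine, so their markers are given beside Hdc. Of 10 mast cell markers 9 had no row, Kit, Cpa3, Fcer1a and Ms4a2 among them. The tenth, Gata2, lay at 0.39 to 0.71 TPM in Control and 0.44 to 0.57 TPM in the knockout. Of 4 basophil markers 2 had a row, and their sum was 0.48 to 0.71 TPM in Control and 0.75 to 1.11 TPM in the knockout, with Mcpt8 and Prss34 without a row. The basophil markers did not move as 1, with Cd200r3 at means of 0.53 and 0.86 TPM and Itga2 at 0.065 and 0.025 TPM. Gata2, Cd200r3 and Itga2 were all too low to test. A missing row does not show absence, as macrophage markers such as Mertk had none either. The part of mast cells or basophils in the Hdc values was not tested. Of 9 neutrophil markers the 3 with a row summed to 17.6 to 18.1 TPM in Control and 23.8 to 29.3 TPM in the knockout, and they moved in opposite directions. S100a8 was called higher (means 5.01 and 19.0 TPM, log2 fold change 1.73) and Csf3r lower, as Hdc was (means 11.9 and 7.39 TPM, log2 fold change -0.62), while Camp was too low to test. Their part in the Hdc values was not tested. In bulk RNA, fewer cells of a type and less RNA per cell cannot be told apart. Slc18a2, the vesicle transporter that loads histamine, had means of 1.51 ± 0.20 and 1.21 ± 0.41 TPM (SD, n = 3 each) and was not called (log2 fold change -0.20, SE 0.19, limma adjusted p = 0.452). The histamine receptor gene Hrh2 was at most 0.06 TPM, and Hrh1, Hrh3 and the degrading enzyme genes Hnmt and Aoc1 had no row.

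Hdc and Ptgs2 fell to different degrees. The ratio of Ptgs2 to Hdc TPM was 87.7, 107 and 107 in Control and 183, 184 and 177 in the knockout, so it was steady within the knockout while both genes varied there. Across the 6 libraries, Pearson's r of their log2(TPM + 1) values was 0.961, a description over 2 groups that lie apart. Among 6493 rows above the median level, those most like Hdc were the chemokine gene Ccl5 (r = 0.9996), Mtdh (0.9994) and the antiviral gene Oasl1 (0.9992), over 6 libraries. Ccl5 ran from 2130 to 3519 TPM in Control and from 319 to 762 TPM in the knockout, Oasl1 from 1126 to 1458 and from 419 to 641 TPM. Mtdh followed the same order with a smaller range, from 102 to 130 TPM in all. Closest to Ptgs2 were Basp1 (r = 0.9991), Rsbn1 (0.9987) and Cd47 (0.9984), each highest in Control replicate 1 and lowest in knockout replicate 3. Over 0.99 there were 117 of the 6493 rows for Hdc and 72 for Ptgs2, so these likenesses are not particular to the rows named.

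Genes around the members were taken from a list of 77 arranged by role and chosen with earlier results of these data known. As for the members, the calls and adjusted p-values of its genes are a description. Of the 77 genes 35 were tested, and 10 rose, 4 fell and 21 were not called. The called share was 40.0% beside 28.5% over all tested rows, given without a reading of it. After scaling by median of ratios 7 were higher and 6 lower, and after upper-quartile scaling 6 were higher and 7 lower, and this balance therefore moves with the scaling. The median log2 fold change was 0.05. The other 42 comprised 26 without a row, 15 too low to test and Dpep2, whose symbol stood on 2 rows.

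The clearest difference at a receptor was in Ptgir, which encodes the prostacyclin receptor. It stood at 221, 202 and 201 TPM in Control and at 136, 135 and 102 TPM in the knockout, far above Ptger4. All knockout libraries lay below all Control libraries, with a log2 fold change of -0.75 (SE 0.11, limma adjusted p = 0.00566). Of the 8 prostanoid receptor genes listed beside Ptger4 it was the 1 that could be tested. On the leukotriene side, Cysltr1, a receptor of cysteinyl leukotrienes, rose from 5.65 ± 0.58 to 9.10 ± 0.50 TPM (SD, n = 3 each, log2 fold change 0.61, limma adjusted p = 0.00649). Fpr2, which encodes a lipoxin and formyl peptide receptor, was called at 0.61 (limma adjusted p = 0.0476), and that call was lost in 11 of 14 alternatives. Ltb4r1, the leukotriene B4 receptor gene, was not called, at 0.36 (SE 0.25).

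Of 13 tested genes that release arachidonic acid or return it to lipids, 4 rose and 1 fell. Lpcat3 and Mboat7, which put polyunsaturated chains back into phospholipids, rose by 0.26 and 0.21 on the log2 scale, Acsl3, a fatty acid CoA ligase gene, by 0.23 and the diacylglycerol lipase gene Daglb by 0.41. Of these calls, that of Daglb was lost without Control replicate 2 or 3 or knockout replicate 2, and that of Lpcat3 without Control replicate 1 or 3 or knockout replicate 2. Acsl3 lost its call without replicate 1 or 2 of either group, and Mboat7 without any library but knockout replicate 3, under upper-quartile scaling and with a replicate block. Pla2g12a, a secreted phospholipase gene, fell from 30.1 ± 0.98 to 22.2 ± 1.20 TPM (SD, n = 3 each, log2 fold change -0.42, limma adjusted p = 0.00457). The most abundant of the secreted phospholipase genes with a row, Pla2g5, had 151 ± 1.29 and 157 ± 3.50 TPM and was not called (log2 fold change 0.05, SE 0.04), nor was Acsl4, the arachidonate CoA ligase gene, at 0.05 (SE 0.06). Pla2g2e had 71.2 ± 3.02 and 62.8 ± 5.97 TPM, lower in the knockout without overlap but not called (log2 fold change -0.18, SE 0.08, limma adjusted p = 0.115).

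Of 7 tested prostanoid synthesis genes 3 rose and 1 fell. Ptges3 rose from 372 ± 33.8 to 480 ± 32.3 TPM (SD, n = 3 each, log2 fold change 0.37, SE 0.08, limma adjusted p = 0.0154). Its pseudogene row Ptges3-ps stood at 110 ± 3.22 and 138 ± 13.9 TPM, and the 2 may share reads. Hpgds, the prostaglandin D synthase gene, fell from 56.1, 61.5 and 61.5 TPM to 48.9, 48.3 and 52.7 TPM (log2 fold change -0.25, SE 0.06, limma adjusted p = 0.0210), a call lost without Control replicate 2 or 3 or knockout replicate 1 or 2. Cbr3 and Akr1b3, reductase genes, rose by 0.31 and 0.27, and both calls ended under both scalings. Cbr3 also lost its call without replicate 1 of either group, Control replicate 2 or knockout replicate 3 and under limma-voom, and Akr1b3 without any 1 of the Control libraries. Of 3 tested genes of inactivation and transport 0 were called by limma, with 0 at an unadjusted p under 0.05 and 0 called by limma-voom. Their log2 fold changes were 0.10 (Ptgr2), 0.11 (Ptgr1) and 0.18 (Abcc4).

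Among 7 tested genes of lipoxygenases and leukotriene handling 1 rose and 1 fell. Mgst2, a microsomal enzyme that can also make leukotriene C4, rose from 8.14 ± 0.73 to 11.7 ± 0.53 TPM (SD, n = 3 each, log2 fold change 0.47, SE 0.09, limma adjusted p = 0.00912), a level above that of Ltc4s. Ephx1, an epoxide hydrolase gene, fell from 9.87 ± 1.34 to 5.82 ± 1.53 TPM (log2 fold change -0.69, SE 0.17, limma adjusted p = 0.0231), a call lost without Control replicate 1 or 2 or knockout replicate 2 or 3. Lta4h, which completes leukotriene B4 synthesis, had 25.6 ± 0.69 and 28.1 ± 1.90 TPM and was not called (log2 fold change 0.13, SE 0.06). Alox12, Alox15 and Aloxe3, the other lipoxygenase genes with a row, did not exceed 0.305 TPM in any library. Of the 14 called genes of the list, Ptgir, Cysltr1, Pla2g12a, Ptges3 and Mgst2 were called in all 15 alternatives.

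**Figure D4:**
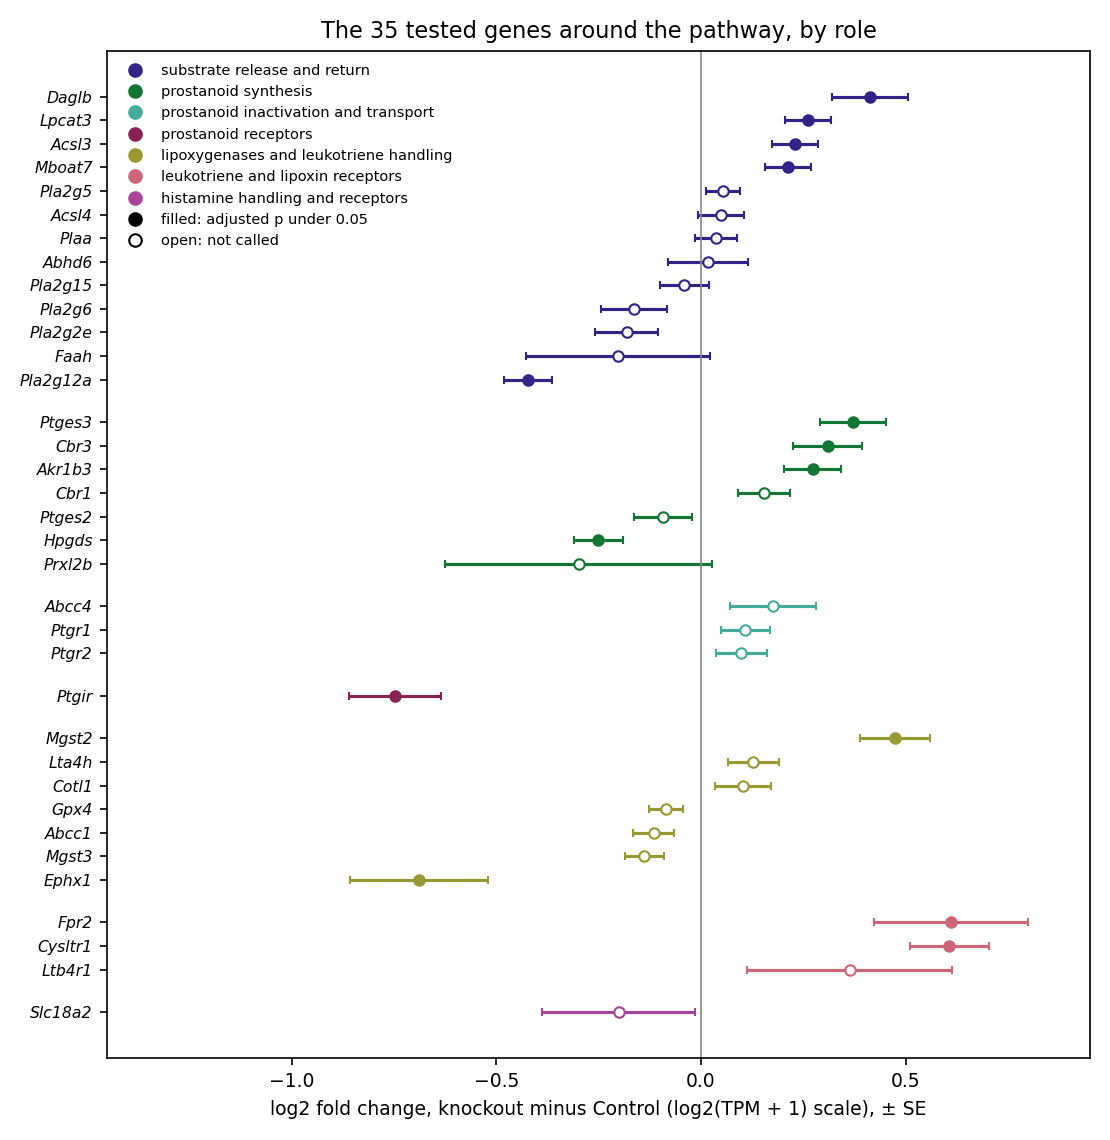
Log2 fold change (knockout minus Control, on log2(TPM + 1)) with its SE for the 35 tested genes around the members, grouped by role, with filled points for an adjusted p under 0.05. Ptgir has the largest fall, at -0.75, and Fpr2 and Cysltr1 the largest rises, both at 0.61.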

How the data were processed

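RNA of 3 Control and 3 Cd74 knockout libraries was sequenced on an Illumina instrument, per the labels' protocols. The deposited table holds TPM made by the authors. The header names no unit, and TPM was read from columns that sum to between 991721 and 998572. Per the submitters' processing notes GRCm39 and DESeq2 were used, at steps not stated, and the aligner, counter and annotation are not given in the sources used here.

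Reads were recovered as TPM times union exon length (GENCODE M21) over each library's step. At a tolerance of 0.02 read 16503 of 17217 rows were whole at that length. In a search of other lengths up to 120000 bases, at a tolerance of 0.003 read, 686 more were whole and 28 were not. Rows whose mean reached 1 TPM were compared with limma 3.58.1 in R 4.3.3 (trend and robust settings) on log2(TPM + 1), which understates changes of low genes. The two-sided p-values were adjusted by Benjamini-Hochberg over 13034 rows, with a threshold of 0.05. The code was tested on simulated data.

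The members and lists were chosen with earlier results of these data known. Genes named were the members, called genes of the pathway list, its uncalled genes at high level, and, after their values were seen, some marker genes and low or uncalled genes given for contrast. The 3 rows most like Hdc and like Ptgs2 were named by Pearson's r. Alternatives were another pseudocount (0.1 TPM), other filters, 2 scalings, each library left out, a replicate block, limma-voom on recovered reads, removal of the 28 rows, and 2 libraries left out together. The last was chosen after seeing the data. Protein sequences were not used here.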

Additional observations from a re-analysis of the deposited data

How the results depend on the processing

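Across the alternatives Hdc kept its direction and call, and Ptgs2 kept its direction and lost its call when any 1 Control library was left out. Leaving out 1 library in turn gave 1312 to 2094 rows called higher and 666 to 1222 called lower, against 2406 and 1313 with all 6. Among the pathway genes it gave 4 to 9 higher and 2 to 3 lower, against 10 and 4. Upper-quartile scaling gave 6 pathway genes higher and 7 lower. The fits without 1 library also had fewer libraries to work with, and the cause of these shifts was not tested. Limma-voom on recovered reads gave 2298 rows higher and 1777 lower and put Hdc at -1.89 and Ptgs2 at -1.06. With a replicate block 2331 rows were higher and 1380 lower, with 8 and 4 of the pathway genes. Same-numbered libraries deviated together with r of 0.134, -0.077 and 0.031, and not every library correlated best with its own number, so the numbers were not taken as pairs. Depth limits Tbxas1 (10 to 53 reads) and Ltc4s (32 to 54 reads).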
